A study of Mus musculus with 18 samples.

Results

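Fatty acid oxidation and the genes switched on by the nuclear receptor PPARa were followed in mouse liver tumours through 31 named genes, given as a list and matched to the count table by Ensembl identifier and GENCODE M21 symbol. The 31 genes are a small share of the 55335 genes in the table, and all 31 were among the 17013 genes with enough counts to be tested. They were grouped by role into 4 genes that bring fatty acids into mitochondria, 10 genes of mitochondrial beta-oxidation, 4 peroxisomal genes, 5 microsomal Cyp4a genes and 8 further PPARa targets, the last group including Ppara itself.

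Bulk RNA was sequenced from hepatocellular carcinomas of 2 mouse models, each with a control group and a group in which cells that express Prom1 had been ablated, with 3 libraries in each of the 4 groups. In the first model, DEN+CCl4, the carcinogen N-nitrosodiethylamine (1 mg/kg) was given into the peritoneum at 14 days of age. Injections of the liver toxin carbon tetrachloride (0.2 ml/kg) followed from 8 weeks of age, with 12 weeks of them before tumours. In the second, N-Ras+AKT, plasmids coding for NRasV12 and myr-AKT (20 µg of each) were delivered with 1.6 µg of Sleeping Beauty transposase by hydrodynamic tail vein injection, which reaches hepatocytes, so that both oncogenes are driven by the EF1a promoter. Ablation used the Prom1C-L knock-in, a tamoxifen-activated Cre made under the Prom1 promoter, together with Rosa26DTA, a diphtheria toxin A allele that Cre switches on. Mice received several 4 mg doses of tamoxifen or the olive oil vehicle after tumours had formed, and tissue was taken 16 days after the last dose in DEN+CCl4 and 6 days after it in N-Ras+AKT. The construct is designed to kill cells in which the Prom1 promoter is active, and which cells were lost was not tested here. Every bulk library carries the strain label Prom1C-L/+;Rosa26DTA/+, while the design text names Prom1+/+;Rosa26DTA/+ littermates as controls, so it is not settled in which respect the controls differed, by genotype, by receiving vehicle or by both. The 4 groups are called DEN+CCl4 control (libraries 7, 8 and 13), DEN+CCl4 depletion (6, 9 and 10), N-Ras+AKT control (3, 10 and 15) and N-Ras+AKT depletion (6, 11 and 17). The labels do not say whether the libraries of a group come from separate animals, so p-values measure the spread between these samples, which may be technical in part.

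Fatty acids that enter a hepatocyte are activated to acyl-CoA, passed across the mitochondrial membranes as carnitine esters and shortened by repeated rounds of beta-oxidation. Very long and dicarboxylic acids are shortened in peroxisomes, and the microsomal Cyp4a enzymes make the dicarboxylic acids by oxidizing the far end of the chain. PPARa, which binds DNA as a partner of RXR, is activated by fatty acids and switches on genes of all these routes in liver, most strongly in fasting.

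Library totals ran from 31306617 to 48055812 counts. Levels are CPM, counts scaled to a common library size with TMM factors, and a gene passed the test when its Benjamini-Hochberg adjusted p in edgeR's quasi-likelihood fit, over all genes tested, was under 0.05. Prom1 was at 60.1, 76.7 and 48.9 CPM in the DEN+CCl4 controls and at 17.5, 40.0 and 35.7 CPM after depletion, which did not pass the test (adjusted p = 0.381). It was at 45.4, 59.2 and 78.3 CPM in the N-Ras+AKT controls and at 5.81, 16.5 and 2.17 CPM after depletion, where it passed (adjusted p = 0.00953). Hepatocyte markers were abundant in all 12 libraries, and markers of fat cells, which also oxidize and store fatty acids, summed to at most 0.0956 CPM in any library.

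After depletion in N-Ras+AKT tumours 24 of the 31 genes rose and none fell. The median log2 difference over the 31 genes was 0.86, beside -0.02 over all genes tested, and 12.8% of all genes tested rose and 10.8% fell in this comparison. All 4 genes of mitochondrial entry, 8 of 10 genes of mitochondrial beta-oxidation, all 4 peroxisomal genes, 4 of 5 Cyp4a genes and 4 of the 8 further targets passed. In 26 of the 31 genes the 3 depletion libraries lay above the 3 controls without overlap, as did 21.4% of all genes tested. After depletion in DEN+CCl4 tumours none of the 31 passed in edgeR's quasi-likelihood test, in a comparison where 0.112% of all genes tested rose and 0.259% fell, and the median log2 difference was -0.04.

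**Figure D1:**
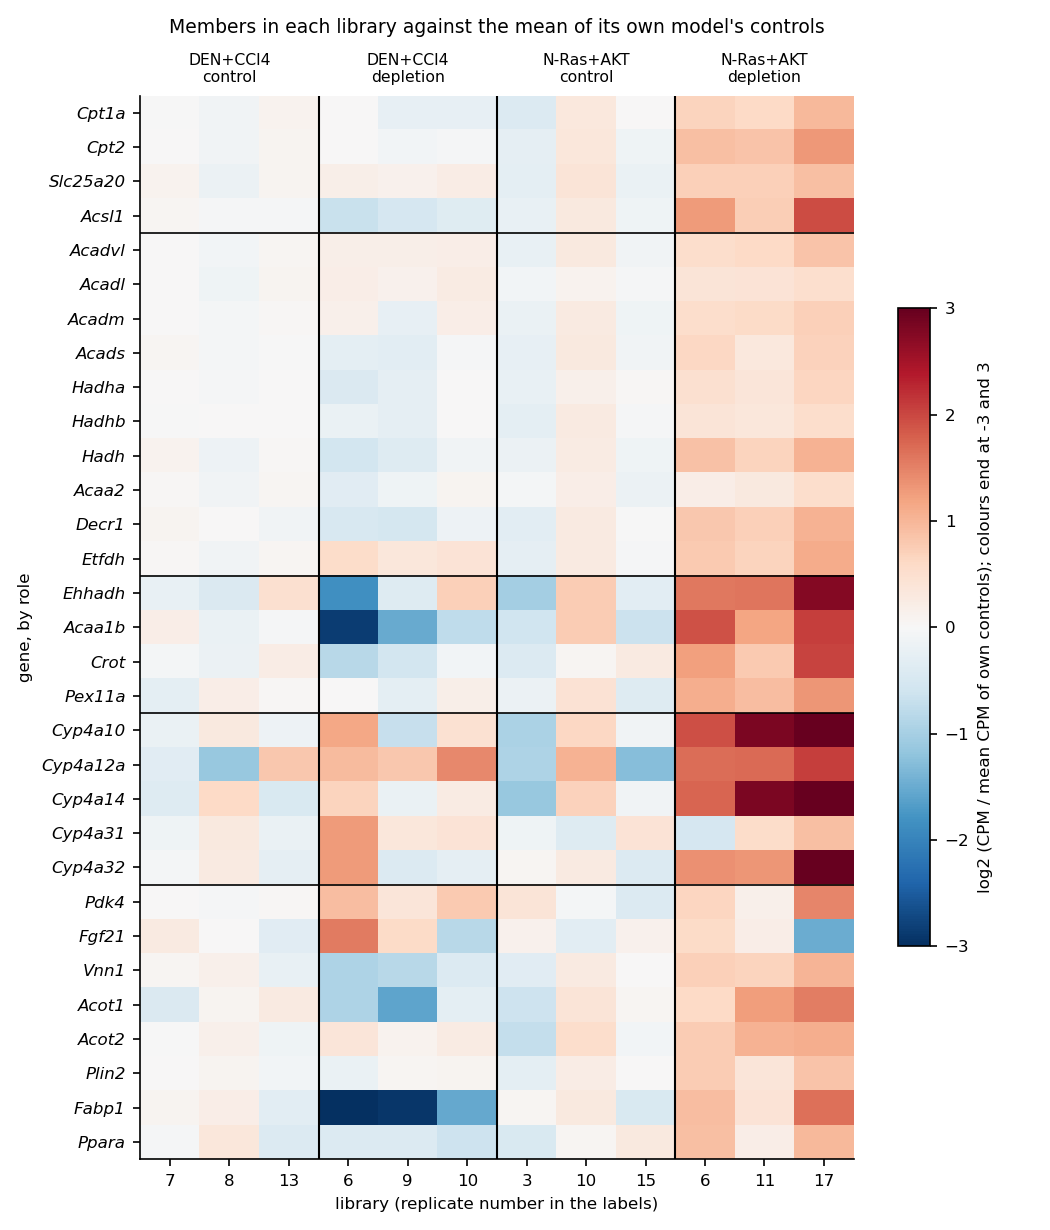
Heat map of the 31 genes (rows, by role, with lines between the roles) in the 12 libraries (columns). Colour gives log2 of the CPM over the mean CPM of the controls of the same model, with colours ending at -3 and 3: the N-Ras+AKT depletion libraries were above their controls' mean in 30 or 31 of 31 genes each, and the DEN+CCl4 depletion libraries in 10 to 17 of 31.

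The N-Ras+AKT libraries of a group were not alike. Control library 10 was the highest of its group in 26 of the 31 genes, and control library 3 was the lowest in 22. Depletion library 17 was the highest of its group in 30 of the 31 genes, with Fgf21 as the exception, and it also had the lowest Prom1. The median log2 of the 31 genes over the control mean was 0.80, 0.68 and 1.06 in depletion libraries 6, 11 and 17, and -0.26, 0.30 and -0.04 in control libraries 3, 10 and 15. Without depletion library 17 the count of genes that rose was 12, without control library 15 it was 14, and without control library 3 it was 15. Over all genes the count that rose was 2186 with all libraries, and 983, 1220 and 1234 in these fits. Without library 17 and DEN+CCl4 depletion library 6 together, each the lowest of its group in Prom1, 16 of the 31 and 1339 of all genes rose. The calls of 12 genes held whichever of the 6 libraries was left out: Cpt2, Slc25a20, Acsl1, Acadvl, Hadh, Decr1, Etfdh, Crot, Pex11a, Cyp4a10, Cyp4a14 and Vnn1. Fitting only these 6 libraries ended the calls of Cpt1a, Acadl, Acadm, Acads, Hadha, Cyp4a12a, Acot2 and Plin2. With no filter on low counts those of Ehhadh, Acaa1b, Cyp4a12a and Acot1 were lost.

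Of the genes that bring fatty acids into mitochondria, Acsl1, which activates long-chain fatty acids to acyl-CoA at the outer membrane, moved most. It was at 118, 168 and 125 CPM in the N-Ras+AKT controls and at 334, 229 and 532 CPM after depletion. Each depletion library was above each control, and the log2 difference was 1.41 (SE 0.26, n = 3 against 3, edgeR adjusted p = 0.00488). Cpt1a, the outer-membrane carnitine palmitoyltransferase whose inhibition by malonyl-CoA sets the rate of entry, was at 175, 288 and 236 CPM and at 373, 354 and 456 CPM. Its groups did not overlap, and it rose by 0.76 on the log2 scale (SE 0.18, edgeR adjusted p = 0.0141). Leaving out depletion library 17 or fitting only the 6 libraries compared ended this call, with the highest adjusted p over all alternatives at 0.0618.

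Slc25a20, the carrier that moves acylcarnitines across the inner membrane, was at 50.3, 80.8 and 54.2 CPM in the N-Ras+AKT controls and at 101.9, 101.3 and 115.6 CPM after depletion, a log2 difference of 0.78 (SE 0.16). Cpt2, which returns the acyl group to CoA inside the mitochondrion, was at 33.7, 51.3 and 37.3 CPM and at 76.5, 73.7 and 100.5 CPM. It had the smallest adjusted p of the 31 genes in this comparison (0.00334, edgeR), with a log2 difference of 1.03 (SE 0.16). The 4 genes of the entry route thus rose together in N-Ras+AKT tumours.

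In DEN+CCl4 tumours the same route gave small differences. Cpt1a was at 516, 481 and 559 CPM in the controls and at 522, 439.9 and 440.0 CPM after depletion, and its groups overlapped (log2 difference -0.15, 95% interval -0.55 to 0.25). Cpt2 was at 42.7, 39.0 and 44.4 CPM and at 42.5, 39.4 and 41.0 CPM, also with overlap. Acsl1 was at 496.5, 466 and 464 CPM in the controls and at 298, 335 and 369 CPM after depletion. All 3 depletion libraries were lower, and the log2 difference of -0.51 (SE 0.25) did not pass (edgeR adjusted p = 0.305). Slc25a20 was at 48.5, 39.9 and 47.7 CPM and at 51.6, 49.9 and 52.7 CPM, with a log2 difference of 0.18.

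Of the 10 genes of mitochondrial beta-oxidation 8 rose in N-Ras+AKT tumours and 2, Hadhb and Acaa2, did not pass. The log2 differences of the 10 ran from 0.35 to 0.87, with a median of 0.58. Hadh, the short-chain hydroxyacyl-CoA dehydrogenase, was at 109, 146.5 and 113 CPM in the controls and at 227, 195 and 254 CPM after depletion (log2 difference 0.87, SE 0.16, edgeR adjusted p = 0.00526). Etfdh, which passes the electrons of the acyl-CoA dehydrogenases to the respiratory chain, was at 89.7, 131 and 105.5 CPM and at 187, 172 and 237 CPM. Decr1, the dienoyl-CoA reductase needed for unsaturated fatty acids, was at 74.9, 113 and 92.5 CPM and at 163, 155 and 193 CPM. In each of these genes every depletion library was above every control.

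The acyl-CoA dehydrogenases for each chain length passed as well over all libraries: Acadvl (very long) by a log2 difference of 0.67, Acadl (long) by 0.44, Acadm (medium) by 0.61 and Acads (short) by 0.55, all past the test in edgeR. Acadm was at 165.5, 229 and 172 CPM in the controls and at 270.3, 282 and 312 CPM after depletion, so that its highest control lay under its lowest depletion library. Acads was at 44.0, 63.4 and 48.4 CPM and at 79.3, 65.2 and 84.5 CPM, with a narrow gap. Hadha, the large subunit of the trifunctional protein that acts on long chains, was at 192, 251 and 230.2 CPM and at 313, 289 and 352 CPM (log2 difference 0.50, edgeR adjusted p = 0.0304). Its partner subunit Hadhb had a log2 difference of 0.42 with an adjusted p of 0.0508 in edgeR, just outside the threshold. Acaa2, the thiolase of the pathway, had a log2 difference of 0.35, overlapping groups and an adjusted p of 0.118 in edgeR. The calls of Acadm, Acads and Hadha were each lost without control library 3 or 15 or depletion library 17, with adjusted p up to 0.0685, 0.0823 and 0.119, those of Acads and Hadha also without depletion library 6. The call of Acadl was lost without depletion library 17 (adjusted p 0.0559).

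The same 10 genes in DEN+CCl4 tumours ranged from -0.38 (Decr1) to 0.43 (Etfdh) in log2 difference, and none passed. Acadm was at 160.5, 153 and 165 CPM in the controls and at 177, 134 and 183 CPM after depletion. Hadha was at 202, 194 and 200.4 CPM and at 147, 164 and 201 CPM. Both genes had overlapping groups, and depletion library 10 was the highest of its group in each. Etfdh was at 75.6, 67.7 and 76.4 CPM and at 107, 92.0 and 97.9 CPM, without overlap, with an adjusted p of 0.175 in edgeR. Decr1 was at 72.1, 68.9 and 63.5 CPM and at 48.9, 47.2 and 61.4 CPM, lower without overlap, with an adjusted p of 0.236.

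**Figure D2:**
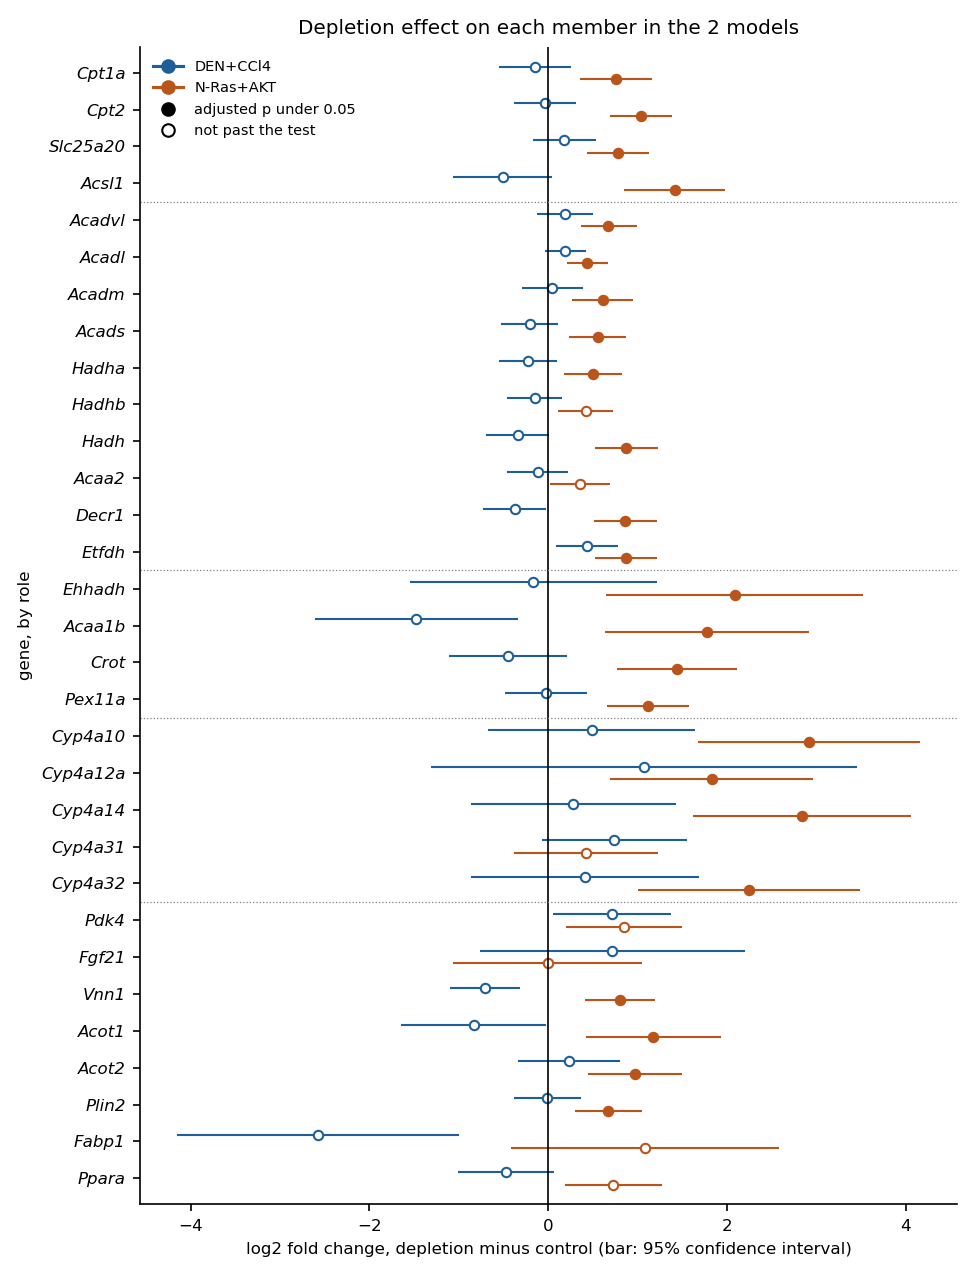
Log2 fold change of each of the 31 genes after depletion, with its 95% confidence interval, in DEN+CCl4 (blue) and N-Ras+AKT tumours (orange), with dotted lines between the roles. Filled points passed the test: 24 in N-Ras+AKT, all to the right of 0, and none in DEN+CCl4.

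All 4 peroxisomal genes rose in N-Ras+AKT tumours, with a median log2 difference of 1.61 beside 0.58 for the mitochondrial genes; the difference between the roles was not tested. Ehhadh, the peroxisomal bifunctional enzyme and a long-used PPARa target, was at 45.4, 156 and 73.1 CPM in the controls and at 273.5, 281 and 614 CPM after depletion. Its libraries did not overlap, and the log2 difference was 2.09 (SE 0.65, edgeR adjusted p = 0.0407). The call was lost without control library 3 or 15 and without depletion library 6 or 17. Acaa1b, a peroxisomal thiolase, was at 91.2, 236 and 88.1 CPM and at 516, 315 and 585.5 CPM (log2 difference 1.77, SE 0.52, edgeR adjusted p = 0.0319), and its call was lost without the same libraries, each in turn. Of the 50-base stretches of its transcripts 35.5% also occur in Acaa1a, so the division of reads between these 2 genes is uncertain.

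Crot, which makes carnitine esters of medium-length chains for export from the peroxisome, was at 172.5, 239 and 273 CPM in the N-Ras+AKT controls and at 535.5, 394 and 929 CPM after depletion (log2 difference 1.44, SE 0.31, edgeR adjusted p = 0.00853). Pex11a, a membrane protein of peroxisome division, was at 33.7, 51.4 and 29.4 CPM and at 81.3, 72.0 and 95.2 CPM (log2 difference 1.12, SE 0.21, edgeR adjusted p = 0.00545). Neither gene had overlapping groups.

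In DEN+CCl4 tumours Ehhadh spread widely, from 396 to 753 CPM in the controls and from 151 to 876 CPM after depletion. Depletion library 6 was lowest and library 10 highest of all 6, so the groups overlapped and the 95% interval of the log2 difference ran from -1.55 to 1.22. Acaa1b was at 211, 160.4 and 180.0 CPM in the controls and at 25.6, 64.3 and 108 CPM after depletion. Its 3 depletion libraries were all lower, with a log2 difference of -1.48 (SE 0.51) and an adjusted p of 0.168 in edgeR. Crot was at 164, 152 and 199 CPM and at 96.7, 117 and 163 CPM, and Pex11a was at 22.9, 32.0 and 28.9 CPM and at 28.0, 22.9 and 31.4 CPM. Both had overlapping groups.

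The 5 Cyp4a genes lie together on chromosome 4 (GRCm38, from 115299046 at the start of Cyp4a12a to 115621602 at the end of Cyp4a32) and code for fatty acid omega-hydroxylases of the microsomes. Some share much of their sequence: of the 50-base stretches of Cyp4a32 transcripts 34.8% also occur in Cyp4a10, and of those of Cyp4a12a 48.9% occur in Cyp4a12b. Values of Cyp4a10, Cyp4a31, Cyp4a32 and Cyp4a12a are therefore uncertain, while Cyp4a14 shares no 50-base stretch with the others. Cyp4a14, the cleanest reading of the cluster, was at 23.5, 83.0 and 47.6 CPM in the N-Ras+AKT controls and at 172, 364 and 566 CPM after depletion. It rose 7.16-fold, with a log2 difference of 2.84 (SE 0.55, edgeR adjusted p = 0.00691). Cyp4a10 was at 25.1, 74.6 and 45.1 CPM and at 185.5, 343 and 565.5 CPM (7.55-fold, log2 difference 2.92, SE 0.56, edgeR adjusted p = 0.00677). In both genes control library 10 was the highest N-Ras+AKT control and N-Ras+AKT depletion library 17 the highest of all 12 libraries.

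Cyp4a12a was at 34.3, 134 and 26.6 CPM in the N-Ras+AKT controls and at 207, 211 and 273.5 CPM after depletion (log2 difference 1.83, SE 0.51, edgeR adjusted p = 0.0284). This call was lost without control library 3 or 15 and without depletion library 6 or 17. Cyp4a32 was low, at 1.54, 1.77 and 1.11 CPM and at 3.80, 3.70 and 13.5 CPM (log2 difference 2.25, SE 0.56, edgeR adjusted p = 0.0171). The call was lost without control library 3 or 15 or depletion library 17, and the lowest log2 difference over the alternatives was 1.34. Cyp4a31 was at 15.8, 13.2 and 23.1 CPM and at 12.2, 25.3 and 32.3 CPM, and it was the one Cyp4a gene with overlapping groups and no call (edgeR adjusted p = 0.432).

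None of the Cyp4a genes passed in DEN+CCl4 tumours, where Cyp4a14 was at 43.3, 84.7 and 40.7 CPM in the controls and at 89.7, 49.3 and 66.2 CPM after depletion. Cyp4a10 was at 56.2, 79.1 and 57.7 CPM and at 143, 39.6 and 87.9 CPM, with depletion library 6 highest and library 9 lowest of the 6. Cyp4a31 was at 17.0, 22.7 and 16.1 CPM and at 45.1, 23.4 and 24.6 CPM, and Cyp4a32 was at 1.18, 1.49 and 1.01 CPM and at 3.00, 0.92 and 1.02 CPM. Depletion library 6 was the highest of its group in all 4 of these genes. Cyp4a12a was close to undetected in this model, with 4, 3 and 11 counts in the control libraries and 10, 11 and 16 after depletion.

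The difference in Cyp4a12a between the models was the largest of any of the 31 genes. The N-Ras+AKT controls held 2081, 7274 and 1319 counts of it and the DEN+CCl4 controls 18 counts in all, a log2 difference of 8.46 (SE 0.80, edgeR adjusted p = 5.52e-05). Cyp4a12a is known as a gene of male liver. All 12 libraries held the Y-linked genes Ddx3y (57.5 to 92.4 CPM) and Uty (18.1 to 24.5 CPM) and at most 1.41 CPM of Xist. A list of 8 other male-biased hepatocyte genes summed to 7604 to 10250 CPM in the DEN+CCl4 controls and to 1079 to 2482 CPM in the N-Ras+AKT controls. Of the 7 genes of that list tested, 1 passed as lower in N-Ras+AKT and none as higher, while 5 had a positive log2 difference and the median was 0.42, so the sum and the median differ in direction.

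**Figure D3:**
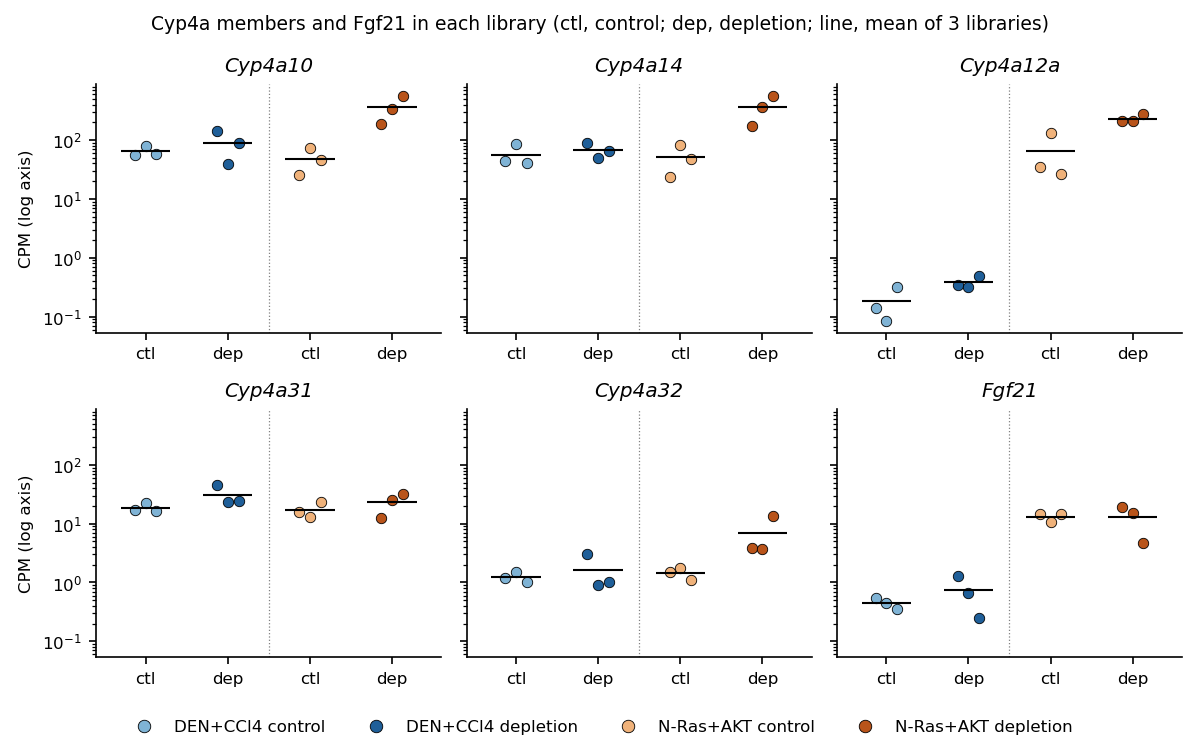
CPM on a log axis of the 5 Cyp4a genes and Fgf21 in each library (points, with the mean of 3 libraries as a line), for control and depletion in DEN+CCl4 (blue) and N-Ras+AKT (orange). Cyp4a12a and Fgf21 separate the models, at up to 0.494 and 1.29 CPM in DEN+CCl4, and Cyp4a10 and Cyp4a14 separate N-Ras+AKT depletion from the other 3 groups.

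Among the further PPARa targets, Acot1 and Acot2, thioesterases of the cytosol and the mitochondrion that release fatty acids from CoA, rose in N-Ras+AKT tumours. Acot1 was at 5.31, 10.7 and 8.48 CPM in the controls and at 12.3, 19.5 and 23.5 CPM after depletion (log2 difference 1.18, SE 0.34, edgeR adjusted p = 0.0301). Acot2 was at 9.59, 22.8 and 15.0 CPM and at 26.6, 32.6 and 33.7 CPM (log2 difference 0.97, SE 0.24, edgeR adjusted p = 0.0156). The groups did not overlap in either gene, and Acot1 shares 23.5% of its 50-base stretches with Acot2. Vnn1, a pantetheinase that takes part in the turnover of CoA precursors, was at 38.0, 57.7 and 48.0 CPM and at 78.0, 76.0 and 97.1 CPM (log2 difference 0.81, SE 0.18, edgeR adjusted p = 0.00982). Plin2, the coat protein of lipid droplets, was at 439.9, 629 and 538 CPM and at 908, 690.1 and 965 CPM (log2 difference 0.67, SE 0.17, edgeR adjusted p = 0.0177). The calls of Acot1 and Plin2 were lost without control library 3 or 15 or depletion library 17, and also without depletion library 11 for Acot1 and library 6 for Plin2. That of Acot2 was lost without control library 15 or depletion library 17.

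The other 4 further targets did not pass in N-Ras+AKT tumours. Fabp1, the liver fatty acid binding protein, was at 521.5, 613 and 360.0 CPM in the controls and at 947, 657 and 1556 CPM after depletion, without overlap, and its wide spread left an adjusted p of 0.274 in edgeR. Ppara (ENSMUSG00000022383.13, chromosome 15, 85734983 to 85802819 in GRCm38), the gene of the receptor, was at 25.6, 36.8 and 42.9 CPM and at 65.2, 40.0 and 69.1 CPM. Its depletion library 11 lay below control library 15, and its log2 difference of 0.73 (SE 0.25) had an adjusted p of 0.0526. Pdk4, the kinase that shuts off pyruvate oxidation when fat is burned, was at 9.04, 6.66 and 5.21 CPM and at 10.8, 7.80 and 19.1 CPM (edgeR adjusted p = 0.0586). DESeq2 called Hadhb, Pdk4 and Ppara besides the 24.

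Fgf21, the fasting hormone that liver releases under PPARa, had no difference between the means of the N-Ras+AKT groups beyond its spread. It was at 14.4, 10.6 and 14.5 CPM in the N-Ras+AKT controls and at 19.4, 15.1 and 4.67 CPM after depletion. Depletion library 17, the highest in the other 30 genes, was the lowest in Fgf21, with 207 counts beside 813 and 687 in libraries 6 and 11. The log2 difference was -0.01 (95% interval -1.07 to 1.05), and 0.39 without library 17. In DEN+CCl4 tumours Fgf21 was at 0.534, 0.441 and 0.347 CPM in the controls and at 1.29, 0.661 and 0.247 CPM after depletion, on 8 to 37 counts per library.

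Of these targets in DEN+CCl4 tumours Fabp1 differed most. It was at 577, 626 and 441 CPM in the controls and at 14.1, 72.7 and 189.6 CPM after depletion. Every depletion library was below every control, with a log2 difference of -2.57 (SE 0.71) and an adjusted p of 0.105 in edgeR. Vnn1 was at 54.9, 58.4 and 45.4 CPM and at 27.9, 29.6 and 39.5 CPM, also lower without overlap (log2 difference -0.71, SE 0.18, edgeR adjusted p = 0.0821). Acot1 was at 2.74, 3.89 and 4.40 CPM and at 1.95, 1.24 and 3.02 CPM, and Acot2 was at 3.38, 3.81 and 3.13 CPM and at 4.39, 3.68 and 4.10 CPM. These 2 genes had overlapping groups, with log2 differences of opposite sign.

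Pdk4 was at 5.34, 5.21 and 5.41 CPM in the DEN+CCl4 controls and at 10.1, 6.84 and 9.22 CPM after depletion. All 3 depletion libraries were higher, and the adjusted p was 0.237. Plin2 was at 204, 215 and 191 CPM and at 176.5, 213 and 216 CPM, with full overlap. Ppara was at 116, 151 and 89.8 CPM and at 90.1, 89.4 and 77.2 CPM, and depletion library 6 lay just above the lowest control, so the groups overlapped (edgeR adjusted p = 0.325).

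Over the 31 genes in DEN+CCl4 tumours 6 were higher and 5 lower without overlap, beside 11.5% and 16% of all genes tested. At an unadjusted p under 0.05, edgeR gave 2 genes higher (Etfdh and Pdk4) and 5 lower (Decr1, Acaa1b, Vnn1, Acot1 and Fabp1). The share of all genes tested at that threshold is not given here, so these 2 counts say nothing about the 31 genes as a set. DESeq2 called 3 lower, Acaa1b, Vnn1 and Fabp1, in a fit that called 688 of all genes lower beside 44 in edgeR, and limma voom called none. Without depletion library 10, edgeR called Vnn1 and Fabp1 lower, and 311 of all genes.

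**Figure D4:**
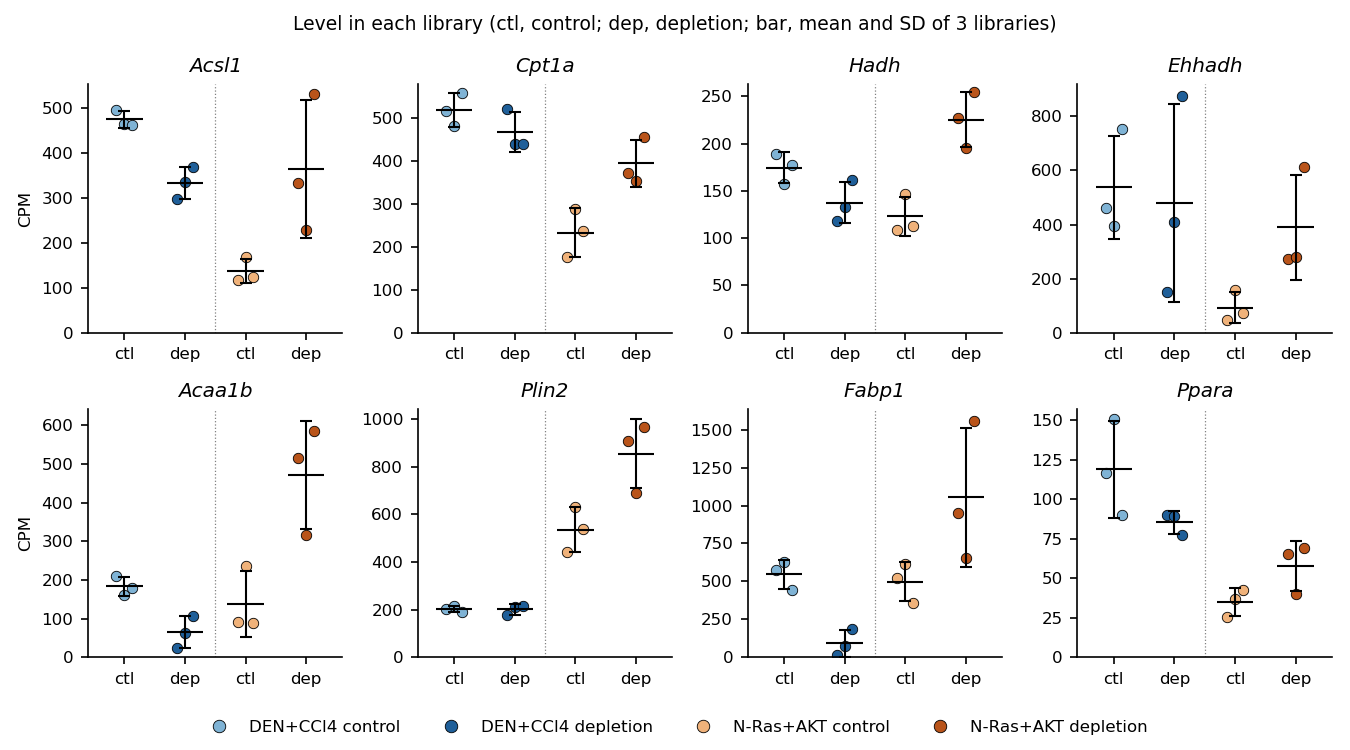
CPM of 8 of the genes in each library (points), with the mean and SD of 3 libraries, for control (ctl) and depletion (dep) in DEN+CCl4 (blue) and N-Ras+AKT (orange), each panel on its own axis from 0. Fabp1 was at most 189.6 CPM after depletion in DEN+CCl4 and at least 360.0 CPM in every other library, and Plin2 was at least 439.9 CPM in every N-Ras+AKT library and at most 216 CPM in DEN+CCl4.

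Promoter sequences from RefSeq (GRCm38.p6, 250 bases before to 50 after each start site) were examined for the PPAR response element, searched as 2 copies of AGGTCA in the same direction with 1 base (N) between them, on both strands, allowing up to 2 mismatches in the fixed letters. Windows were found for 24 of the 31 genes, 25 windows in all. With up to 1 mismatch 1 of the 25 held a match, beside 0.554% of all 32851 windows, and with up to 2 mismatches 3 of 25 did (Fabp1, Plin2 and Slc25a20), beside 3.86% of all. The match of Slc25a20, AGGTGAAAGGTCG, begins 7 bases after the start site. The 2 matches before a start site are shown in their surroundings, since Fabp1 and Plin2 are the genes among the 8 further targets with the highest levels per length. Each is given 5′ to 3′ on the strand of the gene, from the far end of the window to the annotated start of the gene, with the match in capitals; the element reads along the opposite strand in both. The Fabp1 stretch is chr6:71199629-71199826, plus strand, with 1 mismatch, and the Plin2 stretch is chr4:86670061-86670309, minus strand, with 2.
Fabp1: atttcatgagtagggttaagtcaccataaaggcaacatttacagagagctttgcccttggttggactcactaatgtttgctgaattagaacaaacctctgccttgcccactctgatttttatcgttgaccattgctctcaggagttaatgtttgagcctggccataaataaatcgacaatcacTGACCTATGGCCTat
Plin2: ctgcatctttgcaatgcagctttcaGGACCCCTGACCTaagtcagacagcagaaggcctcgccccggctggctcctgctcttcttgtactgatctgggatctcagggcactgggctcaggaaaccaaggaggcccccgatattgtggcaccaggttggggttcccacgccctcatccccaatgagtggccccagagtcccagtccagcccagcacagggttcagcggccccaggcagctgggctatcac
A match describes letters and is not shown to be a bound site, and genes without one in this window may hold elements elsewhere.

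The depletion effects of the models were then compared directly, as the difference of the effects (N-Ras+AKT minus DEN+CCl4) in the same edgeR fit. The difference passed in 15 of the 31 genes, in all 15 toward higher in N-Ras+AKT, where 7.98% of all genes tested differed in that direction and 3.6% in the other. They were Cpt1a, Cpt2 and Acsl1 of the entry route, Acads, Hadha, Hadh and Decr1 of mitochondrial beta-oxidation, Acaa1b, Crot and Pex11a of the peroxisome, Cyp4a14, and Vnn1, Acot1, Fabp1 and Ppara. The smallest adjusted p was that of Vnn1 (0.00933), with a log2 difference of effects of 1.52 (SE 0.25). Decr1 differed by 1.24 (SE 0.23, edgeR adjusted p = 0.0115) and Acsl1 by 1.92 (SE 0.36, edgeR adjusted p = 0.0119).

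Fabp1 had the largest difference of effects, 3.65 (SE 0.98, edgeR adjusted p = 0.0383), although neither of its effects passed alone. Acaa1b followed with 3.25 (SE 0.73, edgeR adjusted p = 0.0212). For Ppara the difference was 1.20 (SE 0.35, edgeR adjusted p = 0.0464), a call that was lost in 14 of its alternatives. In 5 of the 15 genes, Cpt2, Acsl1, Hadh, Decr1 and Vnn1, the call held whichever of the 12 libraries was left out. The count of genes fell to 5 without DEN+CCl4 depletion library 9, to 6 without N-Ras+AKT control library 3 or 15 or depletion library 17, to 7 or 8 without 1 of the 3 DEN+CCl4 controls (7 without library 8), and to 9 without N-Ras+AKT depletion library 6. It was 21 without N-Ras+AKT control library 10. Over all genes the count higher in N-Ras+AKT was 1357 with all libraries and 656 to 1603 with 1 left out. It was lowest without N-Ras+AKT depletion library 17 and highest without N-Ras+AKT control library 10. The models differ in carcinogen, in oncogenes and in days after tamoxifen, and these cannot be told apart. Prom1 itself fell 7.46-fold in N-Ras+AKT and 1.99-fold in DEN+CCl4, where it did not pass. A like extent of depletion in the models was thus not shown, and the difference of the Prom1 effects did not pass (edgeR adjusted p = 0.151).

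The control tumours of the models were compared as well, a contrast that shares its libraries with the effects above. In N-Ras+AKT controls 8 of the 31 genes were higher and 6 lower than in DEN+CCl4 controls, beside 20.8% and 19.8% of all genes tested. Groups did not overlap in 10 genes that were higher and 7 that were lower, beside 28.4% and 26.1% of all genes tested. Ppara was at 25.6 to 42.9 CPM against 89.8 to 151 CPM (log2 difference -1.76, SE 0.25, edgeR adjusted p = 0.000353). The shares of the 31 genes that passed are near those of all genes tested, so the counts say little about these genes as a set. Acsl1 (-1.79), Cpt1a (-1.15), Ehhadh (-2.55), Hadh (-0.50) and Acads (-0.44) were lower on the log2 scale.

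Fgf21 was higher by 4.90 (SE 0.62, edgeR adjusted p = 0.000221), Acot2 by 2.20 (SE 0.26), Plin2 by 1.40 (SE 0.18) and Acot1 by 1.14 (SE 0.35) in the N-Ras+AKT controls. Slc25a20, Decr1 and Etfdh, of the mitochondrial route, were higher by 0.45, 0.46 and 0.57. Leaving out each library in turn kept 8 of the 14 calls: Cpt1a, Acsl1, Ehhadh, Cyp4a12a, Fgf21, Acot2, Plin2 and Ppara. The count of higher genes was 4 without DEN+CCl4 control library 8 or N-Ras+AKT control library 10 and 5 without DEN+CCl4 control library 7.

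Levels can be ranked between genes once divided by length (CPM per kilobase of merged exons). Fabp1 ranked first of the 31 in the controls of both models, at a mean of 991 CPM per kilobase in DEN+CCl4 and 901 in N-Ras+AKT, and second to Acaa2 after depletion in DEN+CCl4 (167 beside 232). Acaa2 was second in the other 3 groups. Ehhadh was in place 3 in the DEN+CCl4 controls (180.2 CPM per kilobase) and in place 9 in the N-Ras+AKT controls (30.7). Plin2 was in place 7 and 3, at 57.9 and 152.5. Cyp4a10 and Cyp4a14 were in place 16 and 19 in the N-Ras+AKT controls and in place 5 and 6 after depletion, at 173 and 141 CPM per kilobase. Neighbours in these orders were not tested against each other.

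Genes of the same routes outside the 31 were also counted after depletion in N-Ras+AKT tumours, where 12.8% of all genes tested rose and 10.8% fell. Their lists were drawn up by function but with earlier results of these data known, so the counts are not independent support. Other mitochondrial beta-oxidation had 11 of 16 genes tested higher and none lower (median log2 difference 0.58), led by Acad12 (1.22), Acad11 (1.14) and Acad10 (1.03). Other peroxisomal oxidation had 20 of 25 higher and 1 lower (median 1.17), led by Eci3 (2.96), Acot3 (2.54) and Hacl1 (1.80).

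Ketone body genes had 2 of 7 higher and 1 lower, with a positive log2 difference in 5 and a median of 0.31. Their summed level was 883 to 1360 CPM in the controls and 1949 to 2582 CPM after depletion. Oxct1, which uses ketone bodies and is normally low in hepatocytes, fell by 1.46 on the log2 scale. Fatty acid uptake, activation and binding had 9 of 19 higher and 2 lower, led by Slc27a5 (1.88), Acsm5 (1.84) and Acsm1 (1.79), while the fatty acid transporter Cd36 did not pass (log2 difference 0.65, edgeR adjusted p = 0.126). Lipolysis and lipid droplets had 6 of 18 higher and 1 lower, with Cidea (2.54) and Lipc (1.89) higher and Hilpda lower (-1.68). Angptl4, a PPARa target that inhibits lipoprotein lipase, was higher without overlap in both models, by 1.31 in N-Ras+AKT and 1.76 in DEN+CCl4, with adjusted p of 0.0558 and 0.0901 in edgeR.

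Of PPARa's partners and coregulators 10 of 20 were higher and 1 lower in N-Ras+AKT tumours, led by Ppargc1b (1.27), Sirt3 (1.06) and Rxrg (0.98). Rxra, the main DNA-binding partner in liver, rose from 142 ± 19.0 to 223 ± 42.0 CPM (mean ± SD, n = 3, log2 difference 0.65, edgeR adjusted p = 0.0137). Ppargc1a did not pass there (0.23) and was higher without overlap in DEN+CCl4 tumours (log2 difference 1.11, edgeR adjusted p = 0.0503). Malonyl-CoA control had 5 of 8 higher and 1 lower. Its members that rose include both Acaca and Acacb (1.39 and 1.67), which make the inhibitor of Cpt1a, and Mlycd (0.82), which breaks it down.

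The list of FGF21 receptors and pyruvate dehydrogenase kinases and phosphatases had 3 of 11 higher and 6 lower, with Fgfr1 (-1.89), Pdk3 (-1.72) and Pdp1 (-1.15) lower. Other Cyp4a and Cyp4f genes had 4 of 11 higher and 1 lower, led by Cyp4f39 (2.52). In DEN+CCl4 tumours no gene of these 9 lists passed in edgeR, and their median log2 differences ran from -0.45 to 0.22. Over all genes tested only 0.112% rose and 0.259% fell there, so the absence of calls says little about these lists.

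**Figure D5:**
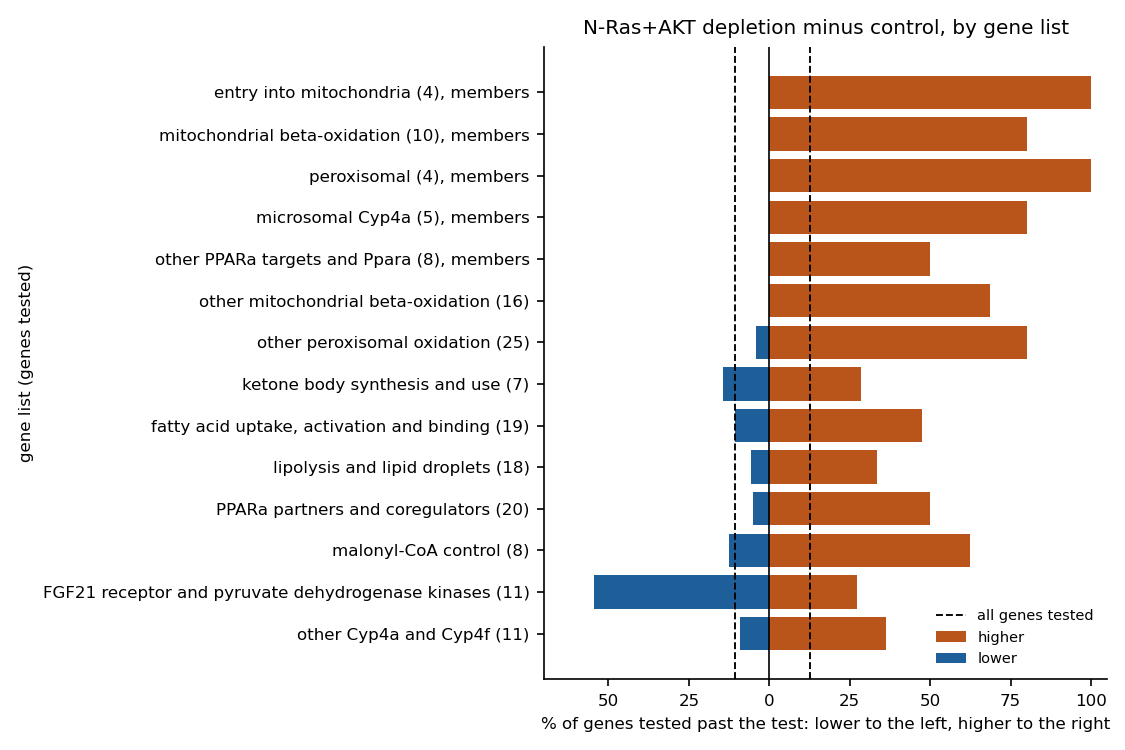
Share of the genes tested in each list that were higher (orange, to the right) or lower (blue, to the left) after depletion in N-Ras+AKT tumours, with the number tested in brackets and dashed lines at 12.8% and 10.8% for all genes tested. The first 5 bars are the 31 genes by role, and the list of FGF21 receptors and pyruvate dehydrogenase kinases is the one with more genes lower (6) than higher (3).

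Markers of several cell types differed as well in N-Ras+AKT tumours, where 12.8% of all genes tested rose and 10.8% fell after depletion. After depletion in N-Ras+AKT tumours 7 of 15 hepatocyte markers were higher and none lower, with summed levels of 68640 to 85530 CPM beside 68040 to 74820 CPM in the controls. Bile duct markers had 6 of 9 tested lower and none higher, and their sum was 310.1 to 3487 CPM after depletion and 7147 to 10340 CPM in the controls. Macrophage markers had 6 of 8 higher (273 to 386 CPM against 66.0 to 156 CPM) and lymphocyte markers 5 of 8 higher (4.65 to 10.4 CPM against 1.91 to 2.95 CPM). Stellate and fibroblast markers had 1 of 10 higher and 1 lower, near the shares of all genes tested. Endothelial markers had 3 of 8 higher and 1 lower. None of the 4 neutrophil markers tested passed. All 9 mitochondrially encoded genes were higher, at a sum of 63640 to 79540 CPM against 33630 to 52560 CPM. The part of these shifts in the rise of the 31 genes was not tested, and in bulk tissue fewer cells of a type cannot be told apart from less RNA per cell.

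In DEN+CCl4 tumours no marker passed in edgeR, in a comparison where 0.112% of all genes tested rose and 0.259% fell. Hepatocyte markers summed to 167600 to 206800 CPM after depletion and 185900 to 247300 CPM in the controls, bile duct markers to 48.6 to 156 CPM and 198 to 496 CPM, and endothelial markers to 124 to 242 CPM and 326 to 342 CPM. Lymphocyte markers summed to 0.592 to 2.13 CPM after depletion and 3.06 to 5.515 CPM in the controls, with a negative log2 difference in all 8. The 9 mitochondrially encoded genes summed to 73510 to 85040 CPM after depletion and 56170 to 66430 CPM in the controls. All 9 had a positive log2 difference, and the difference of effects between the models passed in none of them. Between the control tumours, 11 of 15 hepatocyte markers were lower and 7 of 9 bile duct markers higher in N-Ras+AKT. Over all genes tested 20.8% were higher and 19.8% lower there. Of the 31 genes 8 were higher and 6 lower, with Ppara, Cpt1a and Ehhadh among the lower ones. The part of the marker differences in those of the 31 genes was not tested.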

How the data were processed

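Poly-A RNA of 12 bulk tumour libraries was sequenced. The deposited table holds whole-number counts per Ensembl gene and library; the submitters' processing notes name STAR 2.7.3, RSEM 1.3.1 and mm10 without saying which made this table, so the counts the authors deposited may be rounded RSEM estimates, which divide reads of near-identical genes by a model. Neither label nor file names the annotation release or strand setting. Data of the 6 single-cell samples were not used here.

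Symbols came from GENCODE M21 by Ensembl identifier and matched 55154 of 55335 genes, leaving 181 without one. Genes passing edgeR's low-count filter (17013) were fitted with edgeR 4.0.16 (R 4.3.3), using TMM factors and robust quasi-likelihood, with 4 group means and 8 residual degrees of freedom over all 12 libraries. P-values were adjusted by Benjamini-Hochberg over all genes tested, at 0.05. SEs are the log2 difference over the square root of F. Totals of 36336745 to 43130284 (DEN+CCl4 control), 31306617 to 39840156 (DEN+CCl4 depletion), 37451706 to 48055812 (N-Ras+AKT control) and 37258632 to 42197526 counts (N-Ras+AKT depletion) set the counting precision; the biological coefficient of variation was 0.238. Alternatives were DESeq2 1.42.0, its size factors, limma 3.58.1 (voom), no filter, only the 6 libraries compared and each library left out; leaving out DEN+CCl4 depletion library 6 and N-Ras+AKT depletion library 17 together was added after seeing the data.

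The members and lists were chosen with earlier results of these data known. Values per library are given for Ppara, Cpt1a, Acadm, Hadha, Ehhadh, Fgf21, Pdk4, Plin2, Fabp1, the 5 Cyp4a genes and, per role and comparison, up to 3 genes past the test with the largest log2 difference; of other lists up to 3 such genes are named, plus Angptl4, Rxra, Ppargc1a and Cd36. Some genes that this rule names are not reported here. A planned comparison of protein sequences was replaced by shared 50-base stretches of protein-coding transcripts (GRCm38, GENCODE M21).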

Additional observations from a re-analysis of the deposited data

Results flagged for a closer look

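The effect of depletion differed between the models in 15 genes by the test of the difference itself (N-Ras+AKT minus DEN+CCl4, log2, edgeR, Benjamini-Hochberg). The differences were 0.91 for Cpt1a, 1.07 for Cpt2 and 1.92 for Acsl1, 0.76 for Acads, 0.72 for Hadha, 1.22 for Hadh and 1.24 for Decr1. Peroxisomal Acaa1b, Crot and Pex11a differed by 3.25, 1.89 and 1.15, and microsomal Cyp4a14 by 2.56. Vnn1, Acot1, Fabp1 and Ppara differed by 1.52, 2.01, 3.65 and 1.20. In Fabp1 all 3 depletion libraries were below the controls in DEN+CCl4 and all 3 above them in N-Ras+AKT.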

How the results depend on the processing

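No paired analysis was possible because the groups compared share fewer than 2 replicate numbers. In DEN+CCl4 tumours DESeq2 called 3 of the 31 genes lower, and 688 of all genes beside 44 in edgeR. Leaving out 1 library at a time gave 0 higher and 0 to 2 lower there, with a median log2 from -0.11 to -0.01 (edgeR). The main count of 0 stood beside 7 genes at an unadjusted p under 0.05, for which no share of all genes is given. In N-Ras+AKT tumours leaving out 1 library gave 12 to 25 higher and 0 lower, median 0.71 to 1.02, beside 983 to 2279 of all genes higher. Fitting 6 libraries alone gave 16, no filter 20, DESeq2 27, voom 26 and the size factors 24. Over all genes the calls in either direction were 2626, 3219, 4795, 4501 and 4046 in these fits, beside 4027 in the main fit. For the difference of effects leaving out 1 library gave 5 to 21 higher and 0 lower, median 0.74 to 1.24, beside 656 to 1603 of all genes higher. No filter gave 10, and 8 were higher without DEN+CCl4 depletion library 6 and N-Ras+AKT depletion library 17. For the controls leaving out 1 library gave 4 to 9 higher and 4 to 7 lower, median 0.07 to 0.17, beside 2597 to 3114 and 2707 to 3145 of all genes.

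Some effects that had not passed changed sign; the cause was not tested. In DEN+CCl4, Plin2 was 0.003 with 6 libraries alone. Without those 2 libraries the DEN+CCl4 log2 differences were -0.003 (Acadm), 0.27 (Ehhadh), -0.008 (Cyp4a10), -0.34 (Cyp4a32) and 0.082 (Plin2), Fgf21 was 0.40 in N-Ras+AKT, and the differences of effects were -0.18 (Pdk4) and 0.32 (Fgf21). Leaving out 1 library gave ranges of -0.061 to 0.079 (Plin2), -0.94 to 0.26 (Ehhadh), -0.035 to 0.17 (Acadm), -0.012 to 0.84 (Cyp4a10) and -0.34 to 0.70 (Cyp4a32) in DEN+CCl4. For Fgf21 in N-Ras+AKT it gave -0.41 to 0.39, for the differences of effects -0.65 to 0.056 (Cyp4a31) and -0.32 to 0.39 (Pdk4), and for the controls -0.66 to 0.29 (Cyp4a14), -0.36 to 0.071 (Cyp4a31) and -0.31 to 0.048 (Fabp1). Depth limits Cyp4a12a and Fgf21 in DEN+CCl4, read from 3 to 16 and 8 to 37 counts per library.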

Other observations

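The other lists also gave differences of effects between the models. The difference passed as higher in N-Ras+AKT in 14 of 25 other peroxisomal genes, 5 of 16 other mitochondrial genes, 6 of 19 genes of uptake and activation and 6 of 20 partners and coregulators, with none lower in these 4 lists, beside 7.98% higher and 3.6% lower of all genes tested. Rxra (0.80) was among them. In the list of FGF21 receptors and pyruvate dehydrogenase kinases 3 of 11 were lower and none higher. Lipolysis and lipid droplets had 2 of 18 higher and 2 lower.

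Between the control tumours, where 20.8% of all genes tested were higher and 19.8% lower in N-Ras+AKT, 11 of 20 partners and coregulators were lower and 2 higher, and 11 of 25 other peroxisomal genes were lower and 4 higher. Of the genes of lipolysis and lipid droplets 9 of 18 were higher and 4 lower; the largest log2 differences were those of Cidea (5.77) and Cidec (5.15), droplet proteins that promote fusion and storage. Cd36 was higher by 2.01.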
